A study of Mus musculus with 8 samples.

Results

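A set of 10 imprinted genes is described here in mouse muscle stem cells: Mirg, B830012L14Rik, Dio3, Mest, Peg3, Grb10, Plagl1, Igf2r, H19 and Ndn. They were taken by symbol from a table of 17847 genes, and 10 of 10 were found there. They were chosen after Dio3 had been seen to be higher and Mirg lower in Cox10-/- cells, so the genotype difference of each is given as a description, with no test. The cells came from C57Bl/6 mice and were muscle stem cells, which express Pax7 and rebuild muscle fibres after injury. Cox10-/- animals carried a floxed allele of Cox10, whose product makes a haem used by cytochrome c oxidase in the respiratory chain, and a tamoxifen-dependent Cre driven by Pax7. The wild-type animals served as controls, and whether they carried the Cre is not in the labels. Samples of both genotypes are labelled with tamoxifen, given once into the peritoneum at 200 mg/kg, and adult animals were used 2 days after it. The sort kept DAPI-negative CD34+ cells that lacked CD31, CD45 and Sca1. There were 4 Cox10-/- and 4 wild-type libraries of total RNA, and the labels do not state that each came from its own animal. Every SD therefore describes the spread between these libraries, which may not be a spread between animals. Each limma p-value sets a difference against that spread, moderated by a trend over all genes. Within each genotype, the closest libraries were replicate 1 with 2 and replicate 3 with 4, with a chi-square per degree of freedom of 2.449 to 2.876 over recovered reads against 4.448 to 7.53 for the other pairs. What these library pairs share is not in the labels, and if they are not independent, n = 4 is too high, so differences are also given within each pair, and means of the pairs were tested as 2 values per genotype.

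Imprinted genes are expressed mainly from the chromosome inherited from 1 parent, under the control of DNA methylation set in the germ line. Many act on growth, and in mouse several are known for high expression in muscle stem and progenitor cells. The Dlk1-Dio3 domain on mouse chromosome 12 is a well-studied example in muscle: its non-coding RNAs, which carry a large cluster of miRNAs, are expressed from the maternal chromosome and decline when mouse muscle stem cells differentiate, while Dio3 at its distal end is expressed mainly from the paternal chromosome. Dio3 encodes the type 3 deiodinase, which inactivates thyroid hormone. The table holds total expression, so the parental origin of a transcript was not measured. Dlk1, Meg3, Rian, Rtl1 and the small nucleolar RNAs of the domain were not analysed here.

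Reads counted in genes numbered 4313903, 4348650, 3111035 and 1693349 in Cox10-/- replicates 1 to 4, and 3548568, 2148645, 4650051 and 4024995 in wild-type replicates 1 to 4. Values are log2 CPM (counts scaled to the library's reads in genes), in which every CPM of 1 or less stands at 0. Cox10 itself had a log2 CPM of 3.51, 3.69, 3.49 and 2.05 in Cox10-/- replicates 1 to 4, and 3.98, 3.42, 4.12 and 3.69 in wild-type replicates 1 to 4. The libraries overlapped and the difference of -0.62 ± 0.34 (SE) did not pass (limma, adjusted p = 0.246), with -0.10 between the libraries of replicates 1 and 2 and -1.14 between those of replicates 3 and 4. Without Cox10-/- replicate 4, which had 7 reads of Cox10, it was -0.24 (adjusted p = 0.507). The sources used here do not say whether reads outside the floxed part enter the Cox10 count. Markers of the labelled cell type were measured in both genotypes. The 10 muscle stem cell markers summed to 1427.2 to 1639.1 CPM in Cox10-/- libraries and 2293.4 to 2944.0 CPM in wild-type libraries, and 7 of 10 fell, where 8.51% of all genes did. Pax7 was among those that fell (-1.29 ± 0.11, adjusted p = 1.9e-05). Of 12 endothelial markers 5 rose, where 7.58% of all genes did, with sums of 404.4 to 492.9 CPM in Cox10-/- libraries against 352.1 to 364.0 CPM in wild-type libraries. Of 12 fibro-adipogenic markers 3 rose and 1 fell, and their sums of 5045.7 to 9814.4 CPM in Cox10-/- libraries overlapped those of 4887.5 to 6333.7 CPM in wild-type libraries and exceeded the stem cell sums in every library. Mural markers (2 of 10 rose, 3 fell) summed to 1203.8 to 1572.5 CPM in Cox10-/- libraries and 1440.8 to 1646.3 CPM in wild-type libraries. Tenocyte markers (2 of 6 fell) summed to 1555.8 to 2991.1 CPM in Cox10-/- libraries and 1692.2 to 2215.3 CPM in wild-type libraries. Muscle fibre markers (2 of 12 rose, 1 fell) summed to 138.9 to 362.5 CPM in Cox10-/- libraries and 172.8 to 276.8 CPM in wild-type libraries. Schwann markers (1 of 7 rose, 1 fell) summed to 248.0 to 484.3 CPM in Cox10-/- libraries and 253.3 to 490.2 CPM in wild-type libraries. Median differences were -1.004 for stem cell, 1.169 for endothelial, 0.856 for muscle fibre and 0.595 for haematopoietic markers, beside -0.055 for all genes. Medians of the other marker lists lay between 0.02 (tenocyte) and 0.14 (Schwann). Of 12 haematopoietic markers listed, only 4 had a row in the table, and none of these 4 passed the test. No list had a measured marker at 0 in all libraries of a genotype. The marker lists were chosen with earlier results of these data known, so their shares are only described. In bulk RNA, fewer cells of a type and less RNA per cell cannot be told apart, and the part of these markers in the differences described below was not tested.

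Of these genes, 3 lie on chromosome 12, and another 3, Peg3, H19 and Ndn, on chromosome 7. Of the 10, 7 encode proteins and 3 are non-coding RNAs, Mirg, B830012L14Rik and H19. Mirg, H19 and Mest are hosts of miRNAs. In RefSeq (GRCm38.p6), 19 mature arms of 10 hairpins lie within Mirg, 2 arms of 1 hairpin within H19 and 2 arms of 1 hairpin within Mest. Mature miRNAs were not measured here, and the sequences show what the measured host transcripts can give rise to. Capitals mark the seed, bases 2 to 8 from the 5′ end. Within Mirg, 2 arms share a seed, miR-453 at chr12:109735669-109735692 and miR-496a-5p at chr12:109739132-109739152, both on the plus strand. The arm miR-410-3p, at chr12:109743764-109743784 on the plus strand, shares its seed with no other arm listed for these hosts. The others are miR-335-5p in Mest at chr6:30741314-30741336 on the plus strand and miR-675-5p in H19 at chr7:142577112-142577133 on the minus strand. The arm miR-1193-5p, at chr12:109715716-109715735 on the plus strand, belongs to a hairpin outside Mirg that has its own row in the table.
mmu-miR-453: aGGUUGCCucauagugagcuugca
mmu-miR-496a-5p: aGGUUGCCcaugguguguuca
mmu-miR-410-3p: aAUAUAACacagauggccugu
mmu-miR-335-5p: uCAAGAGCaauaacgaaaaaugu
mmu-miR-675-5p: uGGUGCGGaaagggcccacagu
mmu-miR-1193-5p: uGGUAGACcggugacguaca

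Dio3 and Mirg lie in the same domain, and their RefSeq promoter windows (250 bases before and 50 after the annotated start, GRCm38.p6) are shown because the pair differed in opposite directions. RefSeq had such a window for 8 of the 10 genes. The Dio3 window at chr12:110278980-110279279 on the plus strand held 25 CpG and a GC content of 69.0%, and capitals mark its 1 match to TATAAA. That motif, searched on both strands, was found in 13.6% of 32851 promoter windows. The Mirg window at chr12:109734731-109735030 on the plus strand held 10 CpG and a GC content of 51.3%, against a median of 7 CpG over all windows. Capitals mark the letters of miR-668-5p, miR-668-3p and miR-485-3p, so that the annotated start of Mirg lies among miRNA genes of the cluster. The Mirg window held no match to TATAAA, and neither window held TGCCGC, the hexamer bound by ZFP57, which protects imprints from demethylation in mouse. TGCCGC stood in 11.6% of all windows on either strand, and in windows of Grb10, Mest and Plagl1. AGGTCA, the half-site of thyroid hormone receptors, stood in 16.3% of all windows on either strand and in that of Igf2r. CCATNTT, the core of YY1 sites, stood in 16.1% of all windows on either strand and in 1 of Grb10.
Dio3 promoter window: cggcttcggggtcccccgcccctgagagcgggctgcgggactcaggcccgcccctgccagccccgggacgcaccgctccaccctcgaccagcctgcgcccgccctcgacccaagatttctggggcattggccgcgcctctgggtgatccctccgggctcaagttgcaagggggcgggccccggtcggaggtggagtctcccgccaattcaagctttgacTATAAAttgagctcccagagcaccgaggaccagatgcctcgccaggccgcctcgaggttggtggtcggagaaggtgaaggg
Mirg promoter window: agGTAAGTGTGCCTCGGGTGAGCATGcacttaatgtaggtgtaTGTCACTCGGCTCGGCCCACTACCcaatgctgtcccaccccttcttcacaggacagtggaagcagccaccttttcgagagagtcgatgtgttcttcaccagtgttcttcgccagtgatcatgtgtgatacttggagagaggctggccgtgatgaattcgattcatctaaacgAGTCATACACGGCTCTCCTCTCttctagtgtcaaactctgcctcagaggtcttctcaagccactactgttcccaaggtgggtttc

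Within the Dlk1-Dio3 domain, both measured long non-coding RNAs were lower and Dio3 was higher in Cox10-/- cells. Mirg, the miRNA-bearing transcript of the maternal chromosome, had a log2 CPM of 4.76, 4.70, 4.20 and 4.19 in Cox10-/- replicates 1 to 4, and 6.62, 6.25, 6.27 and 6.31 in wild-type replicates 1 to 4. All 4 Cox10-/- libraries lay below all 4 wild-type libraries, and within Cox10-/- cells replicates 3 and 4 were lower than replicates 1 and 2. The difference was -1.90 ± 0.16 (SE, n = 4 each), which is a 3.73-fold lower level. B830012L14Rik, a long non-coding RNA placed by GENCODE in the same domain, had 3.51, 3.74, 2.89 and 2.82 in Cox10-/- replicates 1 to 4 on that scale, and 5.55, 5.13, 4.62 and 4.50 in wild-type replicates 1 to 4. The genotypes did not overlap, and in each of them replicates 3 and 4 lay below replicates 1 and 2. The difference was -1.71 ± 0.28, a 3.27-fold lower level, from 12 to 58 reads per Cox10-/- library and 75 to 166 reads per wild-type library.

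Dio3 went the other way. Its log2 CPM was 3.41, 3.69, 4.14 and 3.56 in Cox10-/- replicates 1 to 4, and 0.76, 1.22, 2.03 and 1.80 in wild-type replicates 1 to 4. Every Cox10-/- library exceeded every wild-type library, and the wild-type libraries were the more spread out, with an SD of 0.31 in Cox10-/- cells and 0.57 in wild-type cells. The difference of 2.25 ± 0.33 corresponds to a 4.75-fold higher level. It rests on few reads: 46, 56, 55 and 20 in Cox10-/- replicates 1 to 4, and 6, 5, 19 and 14 in wild-type replicates 1 to 4. Of all 17801 genes tested, 0.51% had a larger difference in either direction than Dio3, 1.01% than Mirg and 1.53% than B830012L14Rik. These genes belong to a set chosen on this contrast, so the shares only describe the size of the differences and test nothing.

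Mir1193, a miRNA hairpin gene between B830012L14Rik and Mirg in chromosome order, was the other low non-coding row of the domain and is no member of the 10. Its log2 CPM was 0.48, 0.20, 0 and 0 in Cox10-/- replicates 1 to 4, and 2.08, 2.22, 1.11 and 0.99 in wild-type replicates 1 to 4, from 8 to 15 reads per wild-type library. It fell (-1.43 ± 0.37, limma adjusted p = 0.0203), but the fold is measured against the floor in 2 libraries. The call was lost without Cox10-/- replicate 3 (adjusted p = 0.0574), without wild-type replicate 1 (0.0646), with means of the library pairs (0.113) and in limma voom on recovered reads (0.131). The difference was -0.94 on log2(CPM + 1) and -2.17 in voom, where libraries at the floor were entered as 0 reads. Whether reads of host transcripts enter its count is not given in the sources used here.

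Genes next to the domain gave no call. Begain, which encodes a brain-enriched guanylate kinase-associated protein and lies next to the domain on the Dlk1 side, had 3.87, 3.40, 3.41 and 2.70 in Cox10-/- replicates 1 to 4, and 3.57, 3.60, 4.67 and 4.38 in wild-type replicates 1 to 4. The genotypes overlapped and the difference of -0.71 ± 0.31 did not pass (limma adjusted p = 0.143). It stood at 0.05 between the libraries of replicates 1 and 2 and at -1.47 between those of replicates 3 and 4. Wdr25, on the same side, differed by -0.53 ± 0.29 (adjusted p = 0.249). Ppp2r5c, a regulatory subunit of protein phosphatase 2A beyond Dio3, differed by -0.13 ± 0.08 (adjusted p = 0.336). Its Cox10-/- libraries (6.79 to 6.92) all lay below its wild-type libraries (6.94 to 7.08), as was so for 11.8% of all genes.

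**Figure D1:**
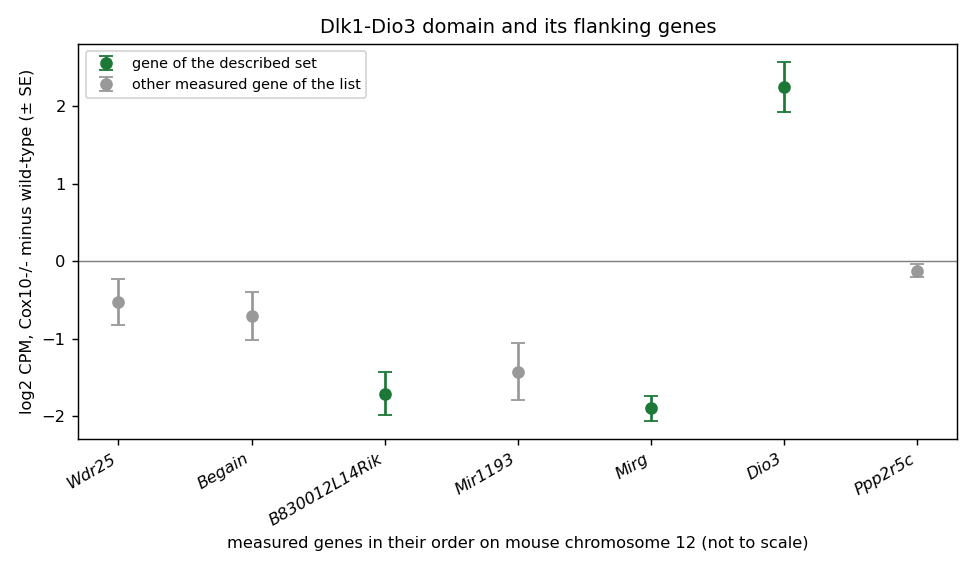
Difference in log2 CPM between Cox10-/- and wild-type libraries (points, ± SE of the fit, 4 libraries each) for the 7 measured genes of the Dlk1-Dio3 region, in their order on chromosome 12 and not to scale. B830012L14Rik, Mir1193 and Mirg lie between -1.43 and -1.90, Dio3 at 2.25, and Ppp2r5c at -0.13.

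Among the 10, H19, Igf2r and Grb10 act on insulin-like growth factor (IGF) signalling, and all 3 were lower in Cox10-/- cells. H19, the maternally expressed non-coding RNA that shares a control region with Igf2, had a log2 CPM of 5.33, 5.30, 5.85 and 5.54 in Cox10-/- replicates 1 to 4, and 5.85, 6.25, 6.61 and 6.58 in wild-type replicates 1 to 4. Only the value of 5.85 was shared between genotypes, and the difference was -0.82 ± 0.18. Igf2r, the maternally expressed receptor that takes IGF2 to lysosomes for degradation, had 9.21, 8.93, 9.18 and 9.24 in Cox10-/- replicates 1 to 4, and 9.60, 9.67, 9.51 and 9.55 in wild-type replicates 1 to 4. The genotypes did not overlap, and the difference was -0.44 ± 0.09. Grb10, an adaptor that inhibits signalling by the insulin and IGF1 receptors and is maternally expressed in most mouse tissues, had 8.28, 8.31, 8.52 and 8.66 in Cox10-/- replicates 1 to 4, and 8.70, 8.87, 9.0 and 8.99 in wild-type replicates 1 to 4. The highest Cox10-/- library lay just below the lowest wild-type library, and the difference was -0.45 ± 0.11.

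Of 19 other genes of the IGF axis tested, 5 rose and 2 fell, which is 36.8% beside the 16.1% of all genes that passed, with a median difference of 0.20 beside -0.055. This list was chosen with earlier results of these data known, so no enrichment is read from its share. Insr, the insulin receptor, rose by 1.07 ± 0.08 (limma adjusted p = 5.64e-06). Igf1r, the IGF1 receptor, rose by 0.47 ± 0.07 (adjusted p = 0.00146, and 0.104 with means of the library pairs). Igfbp5, an IGF-binding protein, fell by 1.09 ± 0.11 (adjusted p = 8.01e-05), and Igf1 fell by 0.83 ± 0.18 (adjusted p = 0.00927). Both receptors rose and the ligand Igf1 fell. Igf2, the paternally expressed neighbour of H19, had 7.05, 7.34, 7.72 and 7.69 in Cox10-/- replicates 1 to 4, and 7.23, 7.31, 7.63 and 7.70 in wild-type replicates 1 to 4. The genotypes overlapped throughout, with a difference of -0.02 ± 0.16 (adjusted p = 0.955), whose sign turned in 4 of the 8 fits that left out 1 library and with median centring. Igf2 was named after its values had been seen.

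The paternally expressed genes outside the Dlk1-Dio3 domain were Mest, Peg3, Plagl1 and Ndn, and they differed among themselves. Mest, an enzyme-like protein of the alpha/beta-hydrolase fold family, was lower, with a log2 CPM of 5.94, 5.74, 6.32 and 6.02 in Cox10-/- replicates 1 to 4, and 6.62, 6.48, 6.85 and 6.87 in wild-type replicates 1 to 4. No libraries overlapped between genotypes, and the difference was -0.70 ± 0.14. It was much alike in both pairs of libraries, at -0.71 for replicates 1 and 2 and -0.69 for replicates 3 and 4. Peg3, also known as Pw1, a zinc-finger protein that marks stem and progenitor cells in several mouse tissues, had 10.51, 10.03, 10.54 and 10.76 in Cox10-/- replicates 1 to 4, and 10.22, 10.29, 10.19 and 10.19 in wild-type replicates 1 to 4. In Cox10-/- cells 3 libraries lay above all wild-type libraries and replicate 2 lay below them, so that the difference was 0.24 ± 0.13, with 0.01 for replicates 1 and 2 and 0.46 for replicates 3 and 4.

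Plagl1, also known as Zac1, a zinc-finger transcription factor, had 8.0, 8.02, 7.90 and 7.91 in Cox10-/- replicates 1 to 4, and 7.75, 7.56, 8.01 and 7.88 in wild-type replicates 1 to 4. The groups overlapped, and the difference of 0.16 ± 0.10 was 0.36 for replicates 1 and 2 and -0.04 for replicates 3 and 4. Ndn encodes necdin, a protein of the MAGE family, and had 4.66, 4.87, 4.72 and 4.79 in Cox10-/- replicates 1 to 4, and 4.70, 4.75, 5.44 and 5.59 in wild-type replicates 1 to 4. Wild-type replicates 1 and 2 lay within the Cox10-/- range and wild-type replicates 3 and 4 above it. The difference of -0.36 ± 0.20 was accordingly 0.04 for replicates 1 and 2 and -0.76 for replicates 3 and 4.

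**Figure D2:**
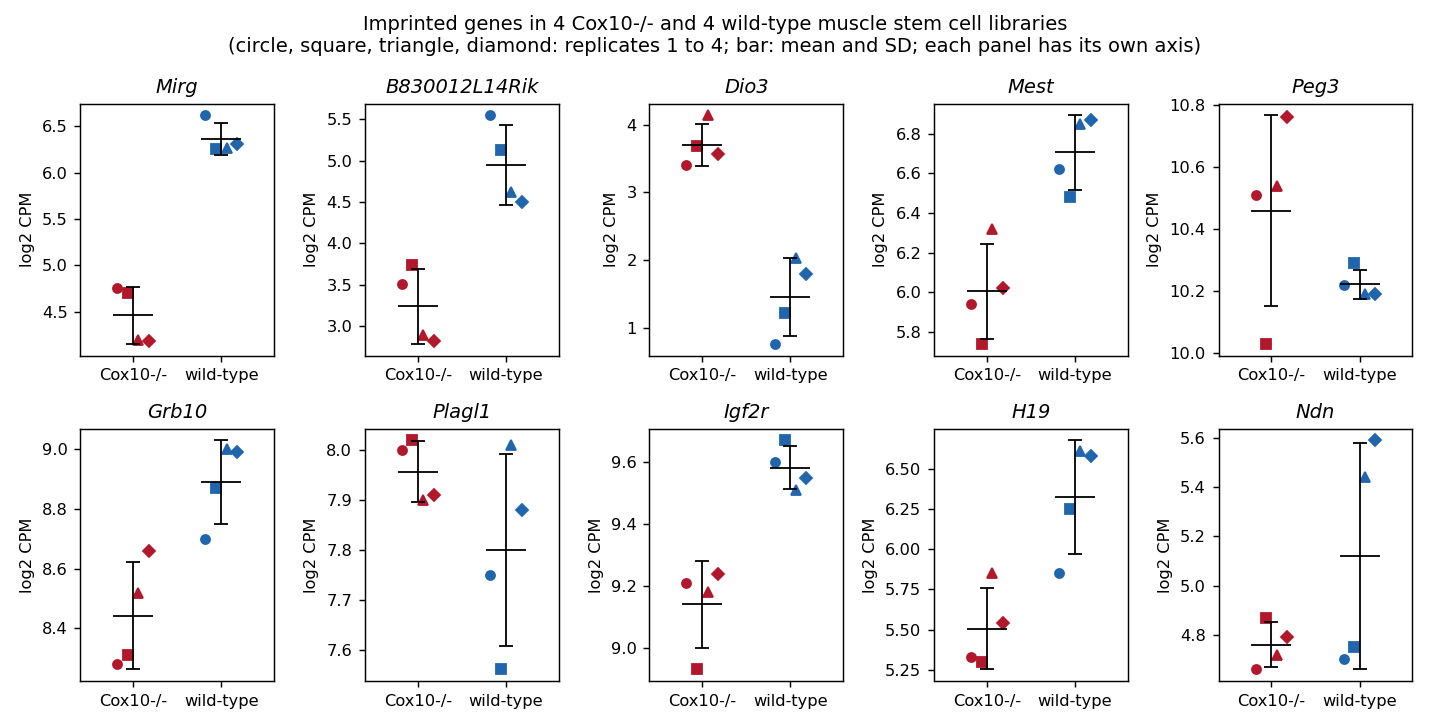
Log2 CPM of the 10 genes in each library, Cox10-/- in red and wild-type in blue, with symbols for replicates 1 to 4 and bars for the mean and SD of 4 libraries; each panel has its own axis. The genotypes do not overlap for Mirg, B830012L14Rik, Dio3, Mest, Grb10 and Igf2r, share a value for H19, and overlap for Peg3, Plagl1 and Ndn.

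In all, 3 of the 10 genes were higher and 7 lower in Cox10-/- cells, with a median difference of -0.445. Of the 10, 7 were past an adjusted p of 0.05 in the fit over all genes, 1 higher and 6 lower, where 16.1% of all 17801 genes were (7.58% higher and 8.51% lower). Mirg, B830012L14Rik and Dio3 were past it in all 15 other settings of the fit, Mest and H19 in 14, and Grb10 and Igf2r in 13. A further count gave 6 with no overlap between genotypes, 1 higher and 5 lower, against 21.1% of all genes (9.3% higher and 11.8% lower). Because the genes were chosen on this contrast, nothing is read from these counts. Over all genes, 1349 rose and 1514 fell, and after centring each library on its median 1764 rose and 1259 fell. All 10 genes had 1 sign in each of 15 other settings of the fit. The sign was the same in both pairs of libraries for 8 of the 10, the exceptions being Plagl1 and Ndn.

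**Figure D3:**
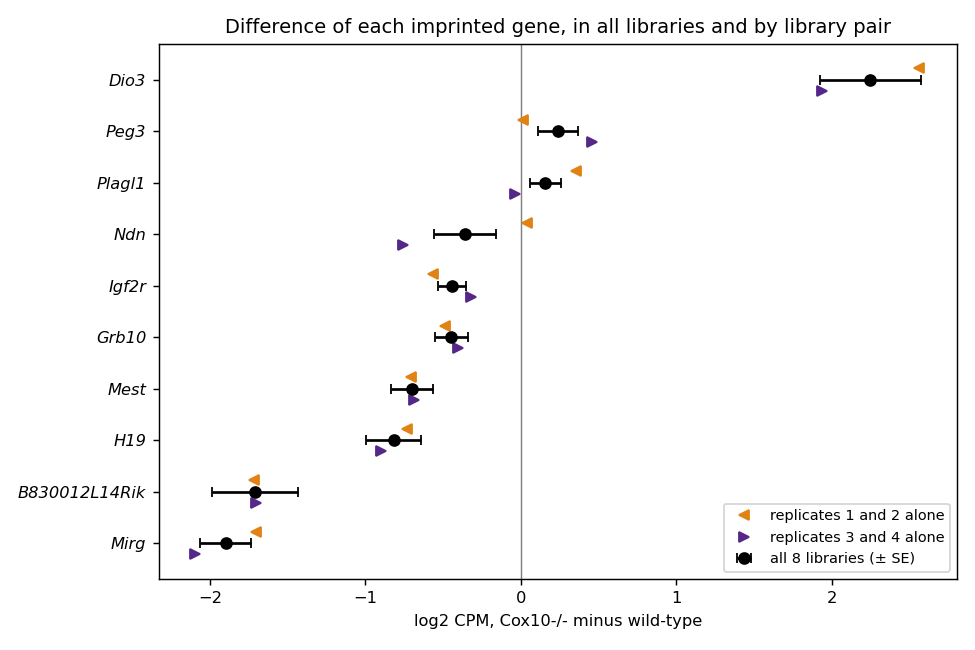
Difference in log2 CPM between Cox10-/- and wild-type libraries for each of the 10 genes, over all 8 libraries (black, ± SE of the fit) and within replicates 1 and 2 (left-pointing) or 3 and 4 (right-pointing) alone. Dio3 is at 2.56 and 1.94 and Mirg at -1.71 and -2.10 in the 2 pairs, while Ndn is at 0.04 and -0.76.

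Compared per kilobase of exon, the 10 genes spanned a wide range of levels. Peg3 stood first in both genotypes, with a mean of 165 CPM per kb in Cox10-/- cells (120 to 199 over 4 libraries) and 137 CPM per kb in wild-type cells (134 to 144). Grb10 followed with 68.2 in Cox10-/- cells (60.6 to 78.9) and 92.8 in wild-type cells (81.1 to 99.8). Igf2r had 63.7 in Cox10-/- cells (54.9 to 68.0) and 86.3 in wild-type cells (82.0 to 91.7). The ranges of Grb10 and Igf2r overlapped in each genotype, so their order does not hold beyond the spread. Plagl1 had 46.2 CPM per kb in Cox10-/- cells (44.4 to 48.2) and 41.7 in wild-type cells (35.1 to 47.9). Mest had 23.4 in Cox10-/- cells (19.3 to 28.8) and 37.8 in wild-type cells (32.2 to 42.1), and H19 had 20.1 in Cox10-/- cells (17.2 to 25.2) and 35.8 in wild-type cells (25.2 to 42.7). Mest and H19 overlapped in both genotypes, and Plagl1 overlapped both of them in wild-type cells and neither in Cox10-/- cells.

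The last places in that order differed between genotypes. In Cox10-/- cells Ndn (7.35 CPM per kb, 6.84 to 7.92) and Dio3 (6.52, 5.24 to 8.68) overlapped and lay above Mirg (3.62, 2.95 to 4.38) and B830012L14Rik (2.18, 1.57 to 2.97), whose ranges just met. In wild-type cells Mirg (13.4, 12.3 to 15.9), Ndn (9.78, 7.04 to 13) and B830012L14Rik (7.16, 5.02 to 10.4) formed an overlapping run, and Dio3 was the lowest of the 10 (1.43, 0.834 to 2.01), below all of them in every library. Dio3 was thus above Mirg per kilobase in Cox10-/- cells and below it in wild-type cells. Before division by length, Mirg stayed above Dio3 in Cox10-/- cells too, with a mean of 22.43 CPM against 13.24 CPM. The order in Cox10-/- cells therefore rests on the GENCODE exon lengths, which may not match the features counted on the mm9 build.

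Genes known in mouse as imprinted in at least 1 tissue, other than the 10, were tested as a list that also covers neighbours of the 10. Of 64 listed, 47 were measured. Among these 47, 4 rose, 9 fell and 34 did not pass. Those that passed were 27.7% beside 16.1% of all genes, and the median difference was -0.058 beside -0.055. The list was chosen with earlier results of these data known, so its share is described and not read as an enrichment. Of 22 paternally expressed genes 2 rose and 5 fell (median -0.041), and of 25 maternally expressed genes 2 rose and 4 fell (median -0.058). Without Cox10-/- replicate 1, Cox10-/- replicate 3 or wild-type replicate 3 the total of 13 was 8, and with means of replicates 1 and 2 and of 3 and 4 it was 3.

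Some genes of 1 imprinted cluster on mouse chromosome 6 passed, in both directions, while others of that cluster did not. Peg10, a paternally expressed gene derived from a retrotransposon, had a log2 CPM of 7.63, 7.68, 7.72 and 7.77 in Cox10-/- replicates 1 to 4, and 6.68, 6.63, 6.96 and 6.82 in wild-type replicates 1 to 4. The genotypes did not overlap and the rise was 0.93 ± 0.09 (limma adjusted p = 5.85e-05). Asb4, of the same cluster and maternally expressed, rose by 1.20 ± 0.27 (adjusted p = 0.0112, and 0.0575 with means of the library pairs). Calcr, the calcitonin receptor of the same cluster, which holds muscle stem cells quiescent in mouse, had 6.48, 6.61, 6.19 and 6.02 in Cox10-/- replicates 1 to 4, and 7.71, 7.67, 7.58 and 7.54 in wild-type replicates 1 to 4. It fell (-1.30 ± 0.13, adjusted p = 4e-05) and is also 1 of the 10 muscle stem cell markers, of which 7 fell. Sgce, Pon2, Pon3, Ppp1r9a and Tfpi2 of the same cluster did not pass, and were named after their values had been seen. Sgce differed by 0.0 ± 0.11, Ppp1r9a by 0.09 ± 0.15 (adjusted p = 0.719), Tfpi2 by 0.22 ± 0.22 (0.542) and Pon3 by 0.50 ± 0.23 (0.153). Ampd3, the AMP deaminase of chromosome 7 that is maternally expressed in mouse placenta, rose by 1.15 ± 0.13 (adjusted p = 0.000134).

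Several neighbours of the 10 genes were lower as well. They are named because they passed, while 34 of the 47 measured genes of the list did not, other neighbours of the 10 among them. Around Grb10, Cobl, an actin nucleator, fell (-0.63 ± 0.13, limma adjusted p = 0.00648, and 0.0666 with means of the library pairs). Ddc, the aromatic amino acid decarboxylase on the other side of Grb10, had 0.48, 0, 0 and 0 in Cox10-/- replicates 1 to 4, and 1.34, 0.90, 2.43 and 2.38 in wild-type replicates 1 to 4. It fell (-1.64 ± 0.40, adjusted p = 0.0148), measured against the floor in 3 libraries. Its difference was -1.10 on log2(CPM + 1) and -3.78 in voom on recovered reads, where libraries at the floor were entered as 0 reads. The call was lost with means of the library pairs (0.0805). Airn, the paternally expressed RNA antisense to Igf2r, had 6.12, 5.88, 5.59 and 4.97 in Cox10-/- replicates 1 to 4, and 6.57, 6.60, 6.43 and 6.23 in wild-type replicates 1 to 4. All Cox10-/- libraries were lower than all wild-type libraries, and Airn fell (-0.82 ± 0.20, adjusted p = 0.0178). The call was lost without Cox10-/- replicate 3 (0.0501) or wild-type replicate 1 (0.0536), and with means of the library pairs (0.0671). Airn overlaps Igf2r on the opposite strand, and whether strand was used in counting is not given in the sources used here, so their reads cannot be told apart with certainty.

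Peg12, a paternally expressed gene of the Ndn region, fell (-0.96 ± 0.25, limma adjusted p = 0.0227), a call lost without Cox10-/- replicate 1 (0.0513), wild-type replicate 3 (0.0716) or wild-type replicate 4 (0.0728), and with means of the library pairs (0.154). Trappc9, a subunit of a vesicle-tethering complex, fell (-0.59 ± 0.13, adjusted p = 0.00772, and 0.103 with means of the library pairs). Zrsr1, a splicing factor gene, passed narrowly (0.34 ± 0.11, adjusted p = 0.0497), and in 5 of 15 other settings, 1 of them among the 8 fits that left out 1 library. The other genes that passed, named after their values had been seen, were Copg2 next to Mest (-0.48 ± 0.13, adjusted p = 0.0261), Kcnq1ot1 of the cluster beside H19 (-0.38 ± 0.11, 0.0294) and Nap1l5 (-0.96 ± 0.30, 0.0491). Copg2, Kcnq1ot1 and Nap1l5 passed in 3, 3 and 1 of the 8 fits that left out 1 library, with adjusted p up to 0.0765, 0.08 and 0.121. They passed in 8, 8 and 5 of all 15 other settings, and not with median centring or means of the library pairs. Zim1, beside Peg3, differed by 0.04 ± 0.12 (adjusted p = 0.832), and Snrpn, of the Ndn region, by 0.84 ± 0.37 (adjusted p = 0.149), both also named after their values had been seen.

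**Figure D4:**
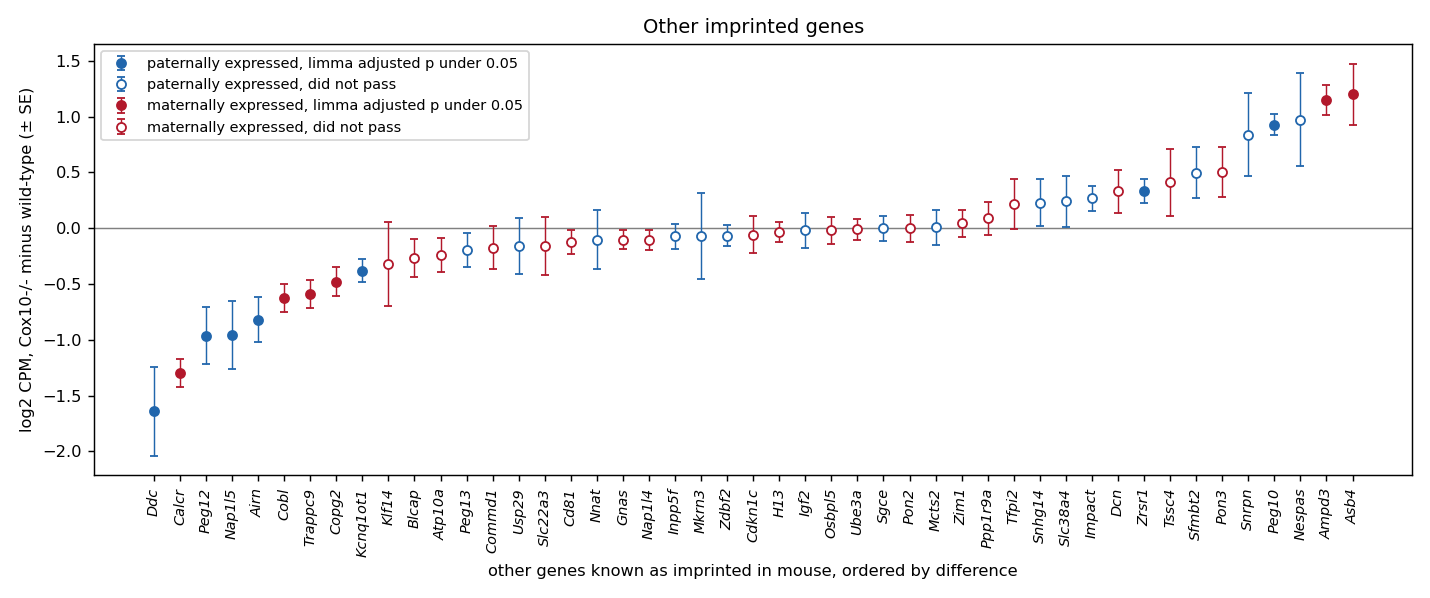
Difference in log2 CPM between Cox10-/- and wild-type libraries (points, ± SE of the fit, 4 libraries each) for 47 other genes known as imprinted in mouse, ordered by difference, with filled points for a limma adjusted p under 0.05. The filled points run from Ddc at -1.64 to Asb4 at 1.20, with 9 below 0 and 4 above.

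Genes that set, protect or read methylation imprints were tested beside them. Of 22, 1 rose and 2 fell, which is 13.6% beside 16.1% of all genes, with a median of -0.075. Earlier results of these data were known when the list was chosen, so its share is only described. Tet1, a dioxygenase that oxidises methylcytosine, had 5.77, 5.84, 5.70 and 5.65 in Cox10-/- replicates 1 to 4, and 6.52, 6.39, 6.75 and 7.0 in wild-type replicates 1 to 4. The genotypes did not overlap and Tet1 fell (-0.93 ± 0.13, limma adjusted p = 0.000604). Ctcf, whose protein binds the control region of H19 and Igf2, fell by 0.31 ± 0.08 (adjusted p = 0.0259), a call lost with median centring (0.197), with means of the library pairs (0.313) and without Cox10-/- replicate 3 (0.0853), wild-type replicate 1 (0.0798), wild-type replicate 3 (0.0633) or wild-type replicate 4 (0.0568). Arid4a, which with Arid4b affects the Prader-Willi imprint in mouse, rose by 0.33 ± 0.08 (adjusted p = 0.0165), a call lost without wild-type replicate 1 (0.0561) and with means of the library pairs (0.257). Hells, a chromatin remodeller needed for DNA methylation, differed by -0.61 ± 0.21 (adjusted p = 0.0635), and passed without wild-type replicate 2 (0.00937), with a term for the library pairs (0.0444) and in voom (0.0311). Without wild-type replicate 1 the number past the threshold was 1 in place of 3.

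Since Dio3 acts on thyroid hormone, genes that carry, convert or read the hormone were tested. The list also holds genes that respond to the hormone and genes of selenoprotein synthesis, and these count in its share. Of 22, 2 rose and 5 fell, which is 31.8% beside 16.1% of all genes, with a median of -0.023. Because earlier results of these data were known when the list was chosen, no enrichment is read from this share. Without Cox10-/- replicate 3 or wild-type replicate 1, or with median centring, 4 passed. Thrsp, a classical hormone-responsive gene of liver and fat, fell by 1.25 ± 0.17 (limma adjusted p = 0.000527). Slc16a10, a transporter of aromatic amino acids and thyroid hormone, fell by 0.91 ± 0.19 (adjusted p = 0.00755, and 0.0642 with means of the library pairs). Thrb, the thyroid hormone receptor beta, had 4.82, 4.89, 4.69 and 4.63 in Cox10-/- replicates 1 to 4, and 3.70, 3.14, 3.87 and 4.22 in wild-type replicates 1 to 4. It rose by 1.02 ± 0.22 (adjusted p = 0.00807), with every Cox10-/- library above every wild-type library, and the call was lost with means of the library pairs (0.071). Dio2, the deiodinase that activates the hormone and opposes Dio3, was named after its values had been seen. Its log2 CPM was 6.29, 6.38, 5.17 and 5.22 in Cox10-/- replicates 1 to 4, and 6.27, 6.71, 5.95 and 6.10 in wild-type replicates 1 to 4, with overlap and a difference of -0.49 ± 0.27 (adjusted p = 0.245). The difference lay between -0.70 (without Cox10-/- replicate 2) and -0.29 (without Cox10-/- replicate 3), and Dio2 passed with the replicate block (0.0424) and with a term for the library pairs (0.0304).

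MEF2A is known in mouse muscle as an activator of the non-coding RNAs of the Dlk1-Dio3 domain. Of 3 MEF2 factors measured, Mef2d rose by 0.33 ± 0.09 (limma adjusted p = 0.0311), a call lost with median centring (0.0687), with means of the library pairs (0.26) and without Cox10-/- replicate 2 (0.0694), Cox10-/- replicate 3 (0.107), wild-type replicate 3 (0.0727) or wild-type replicate 4 (0.0878). Mef2a differed by 0.07 ± 0.11 (adjusted p = 0.685) and Mef2c by -0.005 ± 0.183 (adjusted p = 0.99), and neither sign held in all fits that left out 1 library.

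Profiles over the 8 libraries were searched among 12047 genes whose mean log2 CPM reached 2 or more. Symbols of the Gm, Rik and LOC types and repeated symbols were left out, so B830012L14Rik could not be returned. Among the genes searched, those most like Mirg were Clmn, Foxred2 and Rapsn. Clmn encodes calmin, Foxred2 an oxidoreductase-domain protein of the endoplasmic reticulum, and Rapsn the scaffold rapsyn that clusters acetylcholine receptors in muscle. Likeness was the root mean square difference between profiles after each gene's own mean was taken off, and it was 0.146, 0.148 and 0.194 for Clmn, Foxred2 and Rapsn. Their differences between genotypes were -1.74, -1.97 and -1.80, beside -1.90 for Mirg. For Dio3 the 3 genes were Map7d2, a microtubule-associated protein, Slc2a4, the insulin-responsive glucose transporter GLUT4, and Clic6, of the chloride intracellular channel family, at 0.214, 0.230 and 0.246. Slc2a4 had a log2 CPM of 3.91, 3.86, 4.01 and 3.56 in Cox10-/- replicates 1 to 4, and 1.17, 1.70, 2.03 and 2.16 in wild-type replicates 1 to 4, and like Dio3 it had no overlap between genotypes. All 6 were selected for these profiles, so no test is given.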

How the data were processed

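RNA was measured in 4 Cox10-/- and 4 wild-type libraries, made with a stranded low-input total RNA kit per the labels' protocols. Trim Galore, HISAT2, featureCounts and DESeq2 were used with the mm9 build, per the submitters' processing notes. Tool versions, strand settings and handling of multiply mapped reads: not given in the sources used here. Log2 CPM values with 2 decimals were deposited by the authors, in which every CPM of 1 or less stands at 0, as tested on the file. Their columns sum to 994685 to 996164 CPM. The 1054 rows with no gene were left out, and 23 symbols had been turned into dates. A column with the authors' mean was not used. Low values were whole multiples of 1 read: 100% of those up to 20 reads lay within 0.1 of a whole number, which gave the depths. By chi-square tests of recovered reads, all pairs of libraries within a genotype differed by more than sampling noise, replicates 1 and 2 and replicates 3 and 4 the least.

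Genotypes were compared by limma 3.58.1 (R 4.3.3) on the deposited values with no pseudocount, with genotype as the term, a trended variance prior and Benjamini-Hochberg adjustment over 17801 genes above 0 in at least 4 libraries (46 removed), at a threshold of 0.05. The functions were tested on simulated data. Differences are Cox10-/- minus wild-type. Levels per kilobase used exon lengths of GENCODE annotation. Sequences came from RefSeq tables of GRCm38.p6, not the files' build. The members and lists were chosen with earlier results of these data known. Genes were named by rule: the 10, all measured genes of the Dlk1-Dio3 list, up to 6 rises and 6 falls by smallest p among other imprinted genes, up to 4 genes per other list, 3 like profiles each for Mirg and Dio3, Cox10 and Pax7. Genes named outside that rule are said to be. Of the genes this rule selects, 1 is not reported here. Other settings tried were no filter, log2(CPM + 1), median centring, a replicate block, leaving out each library, a term for and means of library pairs, and voom on recovered reads. Recovered reads were set to 0 where the deposited value stood at the floor.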

Additional observations from a re-analysis of the deposited data

Results flagged for a closer look

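In 108 groups of 4 libraries (54 genes in 2 genotypes), 7 held a library far from the other 3 by Dixon's criterion. Chance gives about 1 in 20. Sgce, Pon2, Pon3, Ppp1r9a and Tfpi2 were not among the genes checked. For Mirg, wild-type replicate 1 stood at 6.62 and the others at 6.25 to 6.31. For Ddc, Cox10-/- replicate 1 stood at 0.48 and the others at 0, the floor. For Insr, Cox10-/- replicate 1 stood at 8.66 and the others at 8.76 to 8.78. For Mef2a, Cox10-/- replicate 4 stood at 7.65 and the others at 7.47 to 7.48. For Cox10, Cox10-/- replicate 4, the library with the fewest reads, stood at 2.05 and the others at 3.49 to 3.69. For Kcnq1ot1, wild-type replicate 4 stood at 9.46 and the others at 9.59 to 9.61. For Zim1, Cox10-/- replicate 2 stood at 7.97 and the others at 8.36 to 8.44. For Mirg, the difference lay between -1.999 and -1.81 over the fits that left out 1 library.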

How the results depend on the processing

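All 10 members kept their sign in 15 other settings. Dio3 ranged from 1.89 to 2.44, Mirg from -1.999 to -1.81, B830012L14Rik from -1.88 to -1.51, H19 from -0.97 to -0.72, Mest from -0.80 to -0.61, Grb10 from -0.52 to -0.36, Igf2r from -0.48 to -0.36, Ndn from -0.50 to -0.20, Peg3 from 0.14 to 0.38 and Plagl1 from 0.08 to 0.24. Fits that left out 1 library called 1840 (without Cox10-/- replicate 3) to 2907 genes (without wild-type replicate 2), and 1902 without wild-type replicate 1, where all 8 libraries gave 2863. Other imprinted genes called numbered 8 to 11 in place of 13, imprint maintenance genes 1 to 4 in place of 3, thyroid hormone genes 4 to 7 in place of 7, and IGF axis genes 5 to 7 in place of 7. Averaging replicates 1 with 2 and 3 with 4, for 2 values per genotype, gave 858 of all genes, 3 other imprinted genes, 1 imprint maintenance gene, 1 thyroid hormone gene and 4 IGF axis genes. Those fits hold fewer samples. A term for these library pairs gave 3838 of all genes, 5 imprint maintenance, 9 thyroid hormone and 9 IGF axis genes, and median centring gave 4 thyroid hormone genes; the cause was not tested. Signs turned for genes near 0: Mef2a (-0.01 without wild-type replicate 4, up to 0.153 without wild-type replicate 1), Mef2c (0.077 median centred, 0.102 without Cox10-/- replicate 3, and -0.103 to 0.16 over left-out libraries), Igf2 (0.065 median centred, and -0.108 to 0.116 over left-out libraries) and Zim1 (-0.031 to 0.156 over left-out libraries). The replicate block gave 3201 calls over all genes and 12 other imprinted genes. The shared numbers are not known to pair samples: deviations of same-numbered libraries correlated at 0.045, 0.137, 0.109 and 0.13 for replicates 1 to 4, and Cox10-/- replicates 2 and 3 correlated better with wild-type replicates 1 (0.165) and 4 (0.152). Across genotypes, Cox10-/- replicate 2 deviated with wild-type replicates 1 and 2 and against 4 (-0.215), and Cox10-/- replicate 3 with wild-type replicates 3 and 4 and against 2 (-0.158). The planned edgeR and DESeq2 tests were not run, since the values are log2 CPM; voom on recovered reads, chosen after seeing the data, gave 3006 calls. Depth limits the domain genes: Dio3 had 5 to 19 reads per wild-type library, Mir1193 was at the floor in 2 Cox10-/- libraries, and a CPM of 1 or less cannot be told from 0.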
